A study of Mus musculus with 21 samples.

Results

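The genes described here encode the proteins of the cytoplasmic ribosome. They were taken as the probe sets whose single platform gene symbol is Rpl or Rps followed by digits, with an optional final letter or l, or is Rplp0, Rplp2 or Rpsa. Rps6k kinase genes and pseudogenes were left out. The rule found 100 probe sets for 46 genes, out of 45101 probe sets and 18193 genes on the array. Of the 46 genes, 20 encode proteins of the large subunit, 20 proteins of the small subunit and 2 proteins of the ribosomal stalk (42 genes on 94 probe sets). The other 4, Rpl39l, Rps4l, Rpl3l and Rps27l, are paralogues on 6 probe sets and are described apart. A further 110 probe sets name a ribosomal protein gene together with other genes and were not used. For that reason Rpl3, Rpl5 and Rplp1, which the array carries on such shared probe sets, have no value here.

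RNA came from entire gonads of male mice of the outbred CD-1 stock, all wild type, taken on gestation days 11 to 18 (gd11, gd12, gd14, gd16 and gd18) or on day 2 after birth (pnd2), and was hybridised to single-channel oligonucleotide arrays. At gd11 (Theiler stage 18) 5 arrays each held a pool of 2 per the labels, and at gd12 (stage 20) 3 arrays each held a pool of 5. The labels name no pool for the 3 arrays of gd14 (stage 22), the 3 of gd16 (stage 24), the 3 of gd18 (stage 26) or the 3 of pnd2 (stage 27). The series' design text instead gives 3 samples per time, each from 1 animal, and the sample labels were followed. One further array held RNA of 8 whole newborns at pnd 0.5. No allele, treatment or sort separates the groups, so stage was the comparison, and whole organs mean that fewer cells of a type and less RNA per cell cannot be told apart.

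Each ribosome holds 1 copy of nearly every ribosomal protein, so growing cells make these proteins in matched amounts. Their mRNAs are among the most abundant of any cell. Most begin with a cytosine in a run of pyrimidines, the 5′ terminal oligopyrimidine (TOP) motif, through which the growth-regulating kinase mTOR controls their translation. Several genes have copies that arose by retroposition or duplication, and in mammals some of these copies are active mainly in germ cells or in striated muscle.

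Promoter sequences from RefSeq (GRCm38.p6) were found for 40 of the 46 genes, 37 of them not paralogues. Because the array reads mRNA levels and not their translation, the motif is shown here only as a known feature of many of these mRNAs. In 8 of the 37 genes (21.6%) the annotated start was a C that opened a run of at least 5 C or T bases, against 3.01% of 27025 genes with a promoter entry. Allowing the run to begin within 10 bases of the annotated start raised the shares to 62.2% of the 37 and 34.4% of all. The 8 windows below run from 40 bases before the annotated start through the first 20 transcribed bases. Capitals mark the pyrimidine run at the start and any CCGGAAG, the core letters bound by ETS-family factors, in either orientation.

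Rpl14 (chr9:120571477-120571536, plus strand): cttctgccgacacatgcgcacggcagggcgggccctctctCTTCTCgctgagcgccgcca
Rpl35 (chr2:39005112-39005171, minus strand): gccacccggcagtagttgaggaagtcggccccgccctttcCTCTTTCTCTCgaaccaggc
Rpl38 (chr11:114668540-114668599, plus strand): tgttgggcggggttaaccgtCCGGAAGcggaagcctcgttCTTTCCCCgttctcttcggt
Rplp2 (chr7:141447611-141447670, plus strand): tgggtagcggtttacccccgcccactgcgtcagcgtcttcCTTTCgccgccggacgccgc
Rps10 (chr17:27635225-27635284, minus strand): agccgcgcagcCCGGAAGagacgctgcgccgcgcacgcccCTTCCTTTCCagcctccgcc
Rps18 (chr17:33955646-33955705, minus strand): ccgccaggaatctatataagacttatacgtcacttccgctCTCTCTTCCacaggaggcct
Rps27 (chr3:90213629-90213688, minus strand): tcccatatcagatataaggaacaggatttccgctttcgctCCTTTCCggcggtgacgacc
Rps6 (chr4:86857348-86857407, minus strand): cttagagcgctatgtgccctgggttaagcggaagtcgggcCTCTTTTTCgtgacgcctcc

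Over the whole entries of 300 bases (250 before the start and 50 from it on), searched on both strands, CCGGAAG occurred in 48.6% of the 37 genes and 9.93% of all genes. AAGATGG, which YY1 can bind, occurred in 18.9% of the 37 and 7.28% of all. GGGCGG, the GC box of Sp1, occurred in 56.8% and 38.2%, and TATAAA, the TATA box, in 13.5% and 15.7%. A match describes the letters of a window and does not show that a factor binds there. For comparison, Rpl39l is printed with its parent Rpl39, and Rps27l at the first of its 2 entries. None of these 3 starts opens with such a run.

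Rpl39l (chr16:10170188-10170247, plus strand): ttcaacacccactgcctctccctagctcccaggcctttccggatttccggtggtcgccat
Rpl39 (chrX:37085203-37085262, minus strand): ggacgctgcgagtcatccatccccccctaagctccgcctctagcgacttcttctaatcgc
Rps27l (chr9:66946046-66946105, plus strand): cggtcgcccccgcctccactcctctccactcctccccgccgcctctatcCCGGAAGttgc

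The deposited value of a probe set is a linear intensity, scaled so that every array has the same trimmed mean (500). Ribosomal protein probe sets were among the brightest signals of the testis. Of the 94 probe sets of the 42 genes, 66 had a mean over the 20 testis arrays between 3001 and 38738, with a median of 27514, and the dimmest of them lay at the 94.9th percentile of the array. The other 28 had means of 4.35 to 1391, and 11 genes had probe sets of both kinds. Ribosomal proteins supplied 31 of the 100 brightest probe sets, and 4.49% to 5.65% of the summed intensity of each testis array. Different probe sets of an array bind with different strength, so their brightness ranks probe sets and not the abundance of the mRNAs.

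Each gene was represented by its brightest probe set that passed a filter on dim values. This left 41 of the 42 genes: Rps16, whose single-gene probe set averaged 4.35, did not pass. Of the 41, 34 genes had a bright probe set (mean of at least 2000). The other 7 (Rpl12, Rpl14, Rpl27a, Rpl39, Rps6, Rps25 and Rps27) were read through a dim one. Among the bright genes the median coefficient of variation between arrays of a stage ran from 3.28% (gd18) to 7.65% (gd11). It was 13.3% to 16.1% for the dim genes. The bright genes therefore carry the more precise values, and 62 of the 66 bright probe sets lay in the top 2% on every testis array, outside the trimmed range that set the scale.

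Stage means of the bright genes lay close together. The array median of their intensities was 29409, 30736, 35376, 32544 and 30638 at gd11, then 28746, 30568 and 29861 at gd12, and 34678, 31198 and 32899 at gd14. It was 31813, 27995 and 30764 at gd16, 30280, 29543 and 30782 at gd18, and 25528, 26379 and 28632 at pnd2. The 3 pnd2 arrays included the lowest, and 1 of them overlapped the gd16 range; all 3 lay below every gd11, gd12, gd14 and gd18 array. The highest array of the series was a gd11 one, replicate 18, which was the highest of its stage for 33 of the 34 genes. Most of the genes shared the order of the arrays at some other stages: gd12 replicate 13 was lowest of its stage for 33 of 34 genes, and gd16 replicate 7 was highest for 31. At gd18 they did not, since replicates 4, 5 and 6 were highest for 15, 5 and 14 genes and lowest for 9, 18 and 7. Whether such an offset belongs to the animals or to the hybridisation was not tested.

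**Figure D1:**
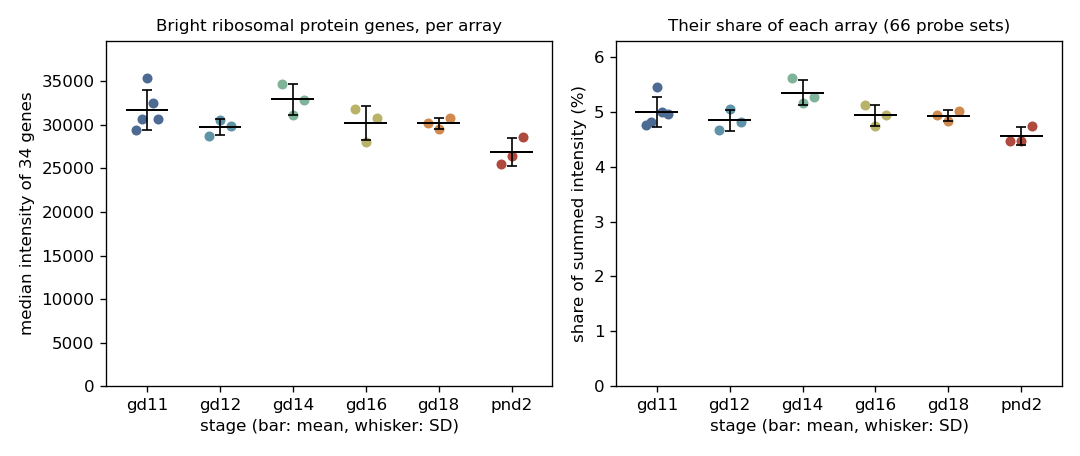
Per-array median intensity of the 34 bright ribosomal protein genes (left) and the share of each array's summed intensity held by their 66 probe sets in percent (right), by stage. Points are arrays, horizontal bars stage means and whiskers SDs; the 3 pnd2 arrays lie lowest on average (26846 ± 1604) and the 3 gd14 arrays highest (32925 ± 1740), on the scale as deposited.

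Across the 6 stages the members differed little in size. A moderated F-test (limma, Benjamini-Hochberg adjustment over 14338 genes) found 22 of the 41 genes varying, against 68.3% of all genes tested. The median spread between a gene's highest and lowest stage mean was 0.31 on the log2 scale, 1.24-fold, against 0.80 for all genes. For the 34 bright members it was 0.29, against 0.43 for 59 other genes with a mean of at least 16000. The highest member value reached 97.9% of its array's maximum. Whether signals so near the top of the range are compressed was not tested. Among the probe sets that represent the 41 genes, the dim one of Rpl14 was alone in exceeding a 2-fold spread (2.44-fold). The next were Rpl12 (1.82-fold, dim) and Rpl37 (1.64-fold). Some other probe sets of these genes also spread over more than 2-fold, such as one of Rpl13a, with 4733 ± 640 at pnd2 (SD, n = 3) against 10040 ± 144 at gd11 (n = 5). The smallest spreads belonged to Rpl38 (0.18), Rpl19 (0.18) and Rps19 (0.18).

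Rpl38, a large-subunit protein whose loss in mice alters the axial skeleton, shows how flat the flattest were. Its intensity was 32900, 33654, 38894, 33864 and 33379 at gd11, 30395, 34136 and 32055 at gd12, 36155, 34302 and 35194 at gd14, 34846, 31518 and 32375 at gd16, 33935, 32922 and 33517 at gd18, and 30375, 30274 and 32879 at pnd2. The 3 gd14 arrays lay above all gd12, gd18 and pnd2 arrays and inside the gd11 range, and every gd11 array lay just above every pnd2 array. None of its comparisons passed the test. Rps19, the protein most often mutated in Diamond-Blackfan anaemia, averaged 22559 ± 1623 at gd11 (SD, n = 5), 20251 ± 739 at gd12, 23028 ± 1172 at gd14, 21582 ± 1527 at gd16, 21778 ± 1071 at gd18 and 22676 ± 2317 at pnd2 (n = 3 each). Its pnd2 and gd11 levels differed by a log2 of 0.01 ± 0.07 (SE).

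The shape over time was shared by the bright genes. On the deposited scale 28 of the 34 had their highest stage mean at gd14, and 28 had their lowest at pnd2. Among all 14338 genes 16.8% were highest at gd14 and 23.5% lowest at pnd2. This shape rests on the scaling. With quantile normalization 6 of the 34 were highest at gd14 and 9 lowest at pnd2. With each array centred on its median gene the counts were 14 and 24. With each array centred on 59 other genes of like brightness (mean of at least 16000) they were 13 and 6. These 59 were set apart by symbol alone. They include Rps3a1 and Rpl22l1, ribosomal protein genes outside the rule, and the elongation factors Eef1a1 and Eef2. Centring on them may also subtract movement that the members share with them. The arrays' trimmed means leave a family at the top of the range free to shift as a block, so the size of its common movement cannot be told apart from the upper end of each array's scale.

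**Figure D2:**
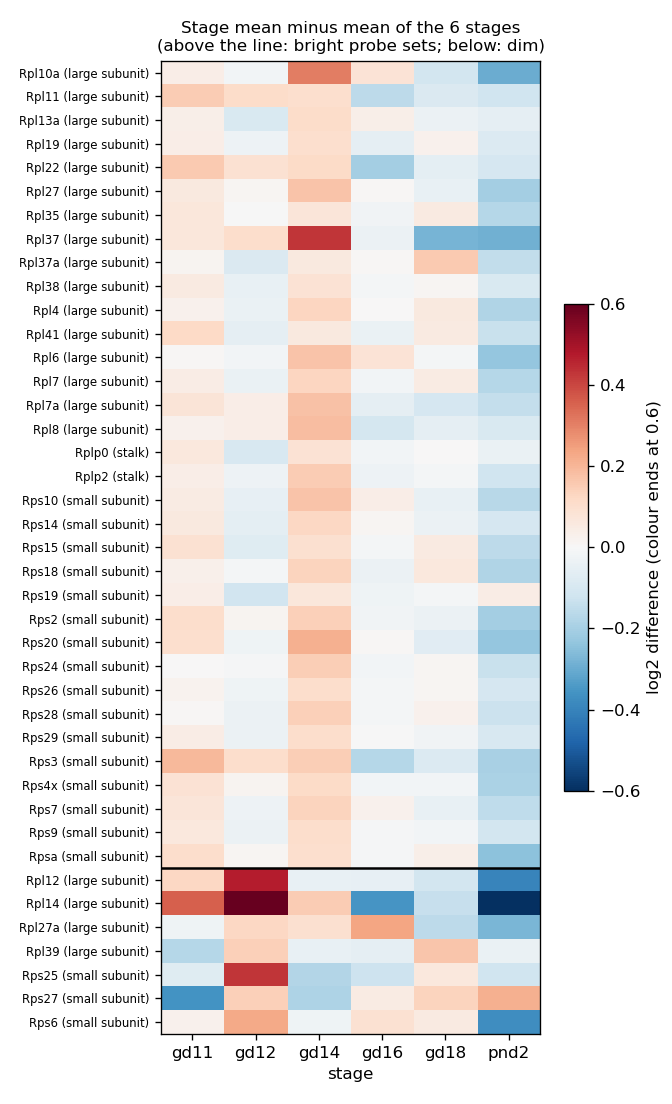
Stage mean of log2 intensity minus the gene's mean over the 6 stages, for the 41 tested ribosomal protein genes (rows, subunit in brackets) and the 6 stages (columns); red is above and blue below the gene's own mean. The gd14 column is reddest and the pnd2 column bluest among the 34 bright genes above the line, on the scale as deposited, while the 7 dim genes below the line are highest at gd12 in 4 cases; with quantile normalization 6 of the 34 are highest at gd14.

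From gd11 to gd12, as the testis forms, few members passed the test. At gd12 against gd11, 2 of 41 rose and none fell, against 11.2% of all genes called higher and 10.2% called lower. Those that rose, Rps25 (log2 change 0.50 ± 0.17 SE, adjusted p = 0.0457) and Rpl12 (0.35 ± 0.12, adjusted p = 0.0442), were read through dim probe sets. Rps25, a small-subunit protein used in initiation at internal ribosome entry sites, had 828.9, 1306 and 1030 at gd12, against 897, 947, 560, 592 and 714 at gd11. The 2 stages overlapped. Rpl12, a protein at the base of the stalk, had 764, 846 and 734 at gd12, against 528, 753, 602, 547 and 628 at gd11, also with an overlap. All 7 dim genes had a higher mean at gd12, with a median of 0.31. Of the 34 bright genes none was called and 32 had a lower mean at gd12, with a median of -0.08 against -0.01 for all genes. That median over the 41 genes, -0.07, turned to 0.04 with quantile normalization and 0.09 with centring on the bright other genes. Leaving out 1 array at a time gave 0 to 2 called members. Rps25 and Rpl12 both lost their call without gd11 replicate 18, 19 or 20, gd12 replicate 14 or 15, or gd14 replicate 11. They also both lost it without any 1 of the gd16 arrays or without pnd2 replicate 1. Without gd12 replicate 14 the 1 member called was another gene.

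At gd14 against gd12, 1 of the 34 bright genes was called. Rpl10a, the large-subunit protein of the L1 stalk, was that gene and the 1 of 41 called higher, against 11.4% of all genes. It had 40811, 33695 and 39213 at gd14, against 27873, 31317 and 31478 at gd12, and the stages did not overlap (log2 change 0.32 ± 0.09 SE, limma adjusted p = 0.0211). A further 32 of the 34 bright genes had a higher mean at gd14 without passing the test, and the median over the 41 was 0.14 against 0.03 for all genes. With quantile normalization that median was 0.01. All 7 dim genes had a lower mean at gd14, and 2 of them passed the test. Rps25 (-0.60 ± 0.19 SE, adjusted p = 0.0366) and Rpl12 (-0.52 ± 0.13, adjusted p = 0.0114) were the 2 of 41 called lower, against 7.34% of all genes. Rpl12 had 562, 548 and 507 at gd14, below all 3 gd12 arrays given above. Leaving out gd11 replicate 18, which enters through the shared spread, raised the count of members called from 3 to 5.

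Rps24, a small-subunit protein, was the 1 gene whose own probe sets were called in opposite directions. One bright probe set had 28141, 24402 and 22663 at gd14, against 19114, 22166 and 20603 at gd12, and rose (0.28 ± 0.09 SE, limma adjusted p = 0.0323). One dim probe set had 697, 749 and 770 at gd14, against 898, 1005 and 1097 at gd12, and fell (-0.42 ± 0.14, adjusted p = 0.0492). At gd14 against gd12, 3 of 66 bright probe sets were called higher and none lower, and 4 of 22 dim ones were called lower and none higher, against 8.7% of all probe sets called higher and 6.65% called lower. The median change was 0.17 for the bright and -0.37 for the dim. Whether the dim probe sets read other transcripts as well was not tested.

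At gd16 against gd14, 4 of 41 members fell and none rose, against 4.99% of all genes called lower and 5.39% called higher. Among probe sets 11 of 66 bright ones were called lower and none higher, against 3.53% and 3.25% of all. All 34 bright genes had a lower mean at gd16, and the median over the 41 was -0.12 against 0.05 for all genes. Rpl37, a zinc-binding protein of the large subunit, had 3787, 3619 and 3351 at gd16, against 5582, 5053 and 4314 at gd14 (-0.47 ± 0.11 SE, limma adjusted p = 0.0155). Rps3, which lines the mRNA entry channel and also acts in DNA repair, had 20218, 19167 and 20426 at gd16, against 25840, 23887 and 25032 at gd14 (-0.32 ± 0.07, adjusted p = 0.0106). The stages were apart for both genes.

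Rpl22, known for its role in lymphocyte development, had 23404, 20869 and 22270 at gd16, against 28814, 26707 and 27239 at gd14 (-0.32 ± 0.07 SE, limma adjusted p = 0.00872). Rpl11, which with Rpl5 binds the p53 regulator Mdm2 when ribosome assembly fails, had 19318, 17498 and 17926 at gd16, against 23733, 21156 and 20803 at gd14 (-0.26 ± 0.07, adjusted p = 0.0200). Neither gene's stages overlapped. Calls at this step were sensitive to single arrays: without gd14 replicate 10 none of the 41 was called, and without gd16 replicate 9 there were 2. The median turned to 0.01 with quantile normalization and came to -0.01 with centring on the bright other genes, which moved the median of all genes to 0.16.

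Between gd16 and gd18 the members' values stayed close. At gd18 against gd16 none of 41 was called by limma, against 1.7% of all genes called higher and 3.18% called lower, and 2 had an unadjusted p under 0.05. The median change was 0.02, as for all genes. At pnd2 against gd18, Rpsa was the 1 of 41 called lower, against 5.26% of all genes, and none was called higher, against 2.54%. Rpsa, a small-subunit protein that is also known as the laminin receptor, had 23259, 25416 and 27038 at pnd2, against 31048, 29584 and 31304 at gd18 (-0.28 ± 0.07 SE, limma adjusted p = 0.0229). The 2 stages did not overlap. Of the 34 bright genes 33 had a lower mean at pnd2, and the median over the 41 was -0.14 against -0.06 for all genes. Leaving out gd18 replicate 4 or 6, or pnd2 replicate 1 or 2, ended the call of Rpsa.

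**Figure D3:**
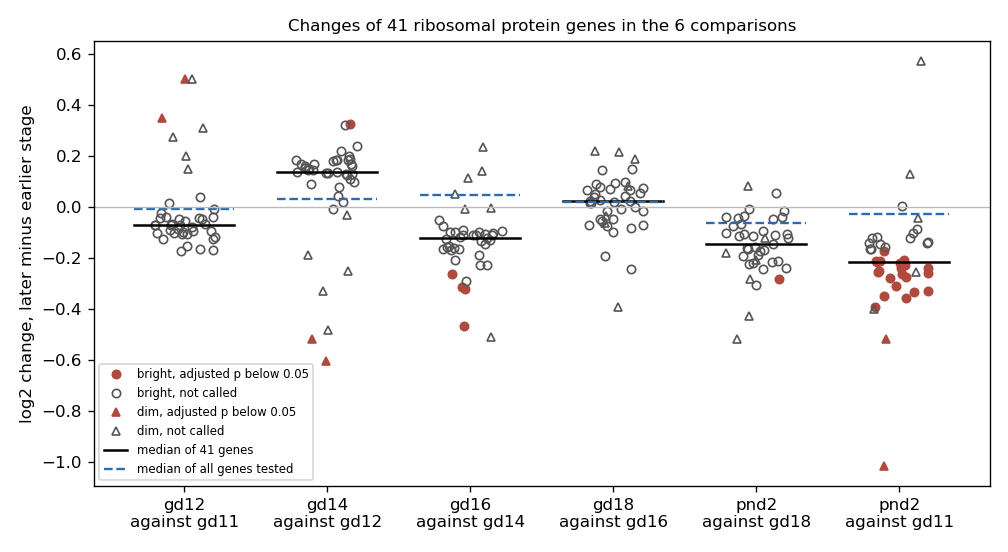
Log2 change of each of the 41 genes in the 6 comparisons, later minus earlier stage; circles are bright and triangles dim probe sets, and red marks an adjusted p below 0.05. Solid lines are the medians of the 41 and dashed lines those of all 14338 genes; on the scale as deposited 33 of 34 bright genes lie above 0 at gd14 against gd12 and 34 below it at gd16 against gd14, where the median turns to 0.01 with quantile normalization.

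Over the whole interval the small steps added to a fall on the deposited scale. At pnd2 against gd11, 23 of the 41 members fell and none rose, against 24.4% of all genes called lower and 24.2% called higher. Among probe sets 37 of 66 bright ones were called lower and none higher, against 22.4% and 21.9% of all. Of the 23 genes, 13 encode large-subunit and 10 small-subunit proteins. The median change was -0.22 (-13.9% on the linear scale), against -0.03 for all genes. The 59 other genes of like brightness had a median of -0.28, with 38 called lower and 5 higher. That set includes Rps3a1, Rpl22l1, Eef1a1 and Eef2, so it does not stand wholly outside the family. This comparison shares its arrays with the adjacent ones and is not independent of them.

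The size of the fall depended on the scaling. With each array centred on its median gene 34 members were called lower and none higher. The median was then -0.31, against -0.12 for all genes. With quantile normalization 4 members were called lower and 2 higher, and the median was -0.00085, against -0.04 for all genes. With each array centred on the bright other genes 2 were called lower and 1 higher. The median turned to 0.03, against 0.22 for all genes. These counts stand without the share of all genes called under the same scaling. Measured against the median of all genes in the same fit, the members' median was -0.19 as deposited and the same with either centring, which subtracts 1 value per array, but 0.04 with quantile normalization. Without pnd2 replicate 1 the count of calls was 15. Erythroid markers moved in the same interval: the sum of 9 erythroid genes was 543 to 600 on the pnd2 arrays, against 81984 to 89003 on the gd11 arrays. The genes of that sum differed: the globin gene Hbb-y averaged 34129 at gd11 and 4.92 at pnd2. Alas2 averaged 393 at gd11, 2280 at gd16 and 187 at pnd2. Of the 8 erythroid genes tested, 6 were called lower and 1 higher, against 24.4% and 24.2% of all genes. A list of 13 neural genes summed to 1394 to 1453 at pnd2 against 5654 to 99317 at gd11. The 3′ to 5′ ratio of Actb, a sign of RNA quality, was 1.33 to 1.42 on the pnd2 arrays against 1.19 to 1.29 on the gd11 arrays, and that of Gapdh was 0.667 to 0.702 against 0.717 to 0.813. The part of these markers and ratios in the result was not tested. Leaving out the 2 gd11 arrays with the highest neural sums, replicates 16 and 17, gave 29 called members. The share of all genes called is not given beside this count or the 15 above.

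Among the called genes, Rpl14, Rpl12 and Rps3 fell most. Rpl14, a large-subunit protein, had 596, 576 and 487 at pnd2, against 1027, 1214, 1054, 1196 and 1203 at gd11 (-1.01 ± 0.21 SE, limma adjusted p = 0.00051). It kept its call under every alternative tried. Rpl12 had 399, 457 and 398 at pnd2, against the gd11 values given above (-0.52 ± 0.12, adjusted p = 0.00152). Rps3, the called bright gene with the largest fall, had 19079, 19520 and 20277 at pnd2, against 23470, 25896, 28949, 25648 and 25033 at gd11 (-0.39 ± 0.07, adjusted p = 7.15e-05). No stage overlapped the other for these 3 genes. A dim probe set of Rps3 had a higher mean at pnd2 and did not pass the test, with 1449 ± 104 at pnd2 against 1204 ± 212 at gd11 (0.28 ± 0.16).

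Rpl7, a large-subunit protein, had the median change (-0.22 ± 0.07 SE, limma adjusted p = 0.0147). It had 25256, 24442 and 28711 at pnd2, against 28753, 28554, 34303, 30136 and 29947 at gd11. A single pnd2 array reached into the gd11 range. Rpsa had 23259, 25416 and 27038 at pnd2, against 30708, 32652, 34112, 32354 and 30838 at gd11 (-0.35 ± 0.06, adjusted p = 0.000189), and Rpl4, which lines the exit tunnel, fell as well (-0.21 ± 0.07, adjusted p = 0.0139).

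The 2 stalk genes measured, Rplp0 and Rplp2, whose proteins recruit translation factors, did not pass the test in any of the 6 comparisons, although Rplp2 varied over the stages in the F-test. Rplp0, often used as a reference transcript, averaged 32566 ± 2063 at gd11 (SD, n = 5), 29059 ± 1009 at gd12, 33100 ± 2728 at gd14, 30814 ± 2432 at gd16, 31120 ± 1701 at gd18 and 30291 ± 1360 at pnd2 (n = 3 each). At pnd2 against gd11 its change was -0.10 ± 0.07 and that of Rplp2 -0.16 ± 0.07 (SE). Rpl13a, a large-subunit protein also known from the interferon response of human cells, has 4 bright probe sets, and they disagreed. The brightest changed by -0.09 ± 0.08 over the same interval and another by -0.01 ± 0.09, neither of them called. The other 2 fell without overlap of the stages, one with 4733 ± 640 at pnd2 against 10040 ± 144 at gd11 (-1.09 ± 0.10 SE, limma adjusted p = 6.39e-08) and one with 9014 ± 354 at pnd2 against 15283 ± 645 at gd11 (-0.76 ± 0.07, adjusted p = 1.85e-08). Rps6, the target of S6 kinases, was read through a dim probe set that varied widely between arrays, with 661, 1053 and 495 at pnd2, against 845, 875, 946, 1047 and 963 at gd11, and the change of -0.40 ± 0.31 (SE) did not pass the test. The 8 genes whose start opens with a pyrimidine run had 4 called lower and a median of -0.21, and the 28 tested genes with a promoter entry but no such run had 17 called lower and a median of -0.23, where 24.4% of all genes were called lower.

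The 3 pnd2 arrays were also set beside the 1 newborn reference array, without a test. Among the 34 bright genes 24 were lower and 10 higher in the pnd2 testis, with differences of log2 -0.23 to 0.25. Their median was -0.08, while the median of all genes was 0.11. Of the 7 dim genes 5 were higher and 2 lower, with a median of 0.85.

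Of the paralogues, 3 spread more widely over the stages than the probe sets that represent the other members: Rpl39l (14.6-fold), Rpl3l (5.84-fold, out of values near background) and Rps4l (3.68-fold). Rpl39l, an autosomal copy of the X-linked Rpl39 that is known from male germ cells in the mouse, was low at gd11 with 201, 669, 495, 272 and 361. It had 795, 2354 and 1932 at gd12, 6465, 5114 and 5462 at gd14, 4547, 5549 and 4629 at gd16, 1740, 2103 and 3579 at gd18, and 2111, 3007 and 2659 at pnd2. Every gd12 array was above every gd11 array, and every gd14 array above every gd12 array. The log2 change was 2.00 ± 0.33 (SE) at gd12 against gd11 (limma adjusted p = 0.000323) and 1.86 ± 0.37 at gd14 against gd12 (adjusted p = 0.00179). At pnd2 against gd11 it was 2.73 ± 0.33 (adjusted p = 1.65e-06).

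Rps4l, an autosomal copy of the X-linked Rps4x on chromosome 6, was also highest at gd14. It had 2433, 3326, 3820, 3059 and 2869 at gd11, 4013, 6821 and 6325 at gd12, 11441, 10364 and 10490 at gd14, 5197, 6396 and 4008 at gd16, 2546, 2775 and 3471 at gd18, and 4235, 4504 and 4948 at pnd2. It rose at gd12 against gd11 (0.86 ± 0.17 SE, limma adjusted p = 0.00146) and at gd14 against gd12 (0.95 ± 0.19, adjusted p = 0.00186). It fell at gd16 against gd14 (-1.07 ± 0.19, adjusted p = 0.00188) and at gd18 against gd16 (-0.81 ± 0.19, adjusted p = 0.0190), and rose at pnd2 against gd18 (0.64 ± 0.19, adjusted p = 0.0437). Adjacent stages did not overlap in any of these 5 steps. On the newborn reference array Rps4l read 1161 and Rpl39l 821, below every testis array from gd14 on.

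The parent genes were called less often, a difference that was not itself tested. Rps4x, the X-linked parent of Rps4l, averaged 33234 ± 2958 at gd14 and 31003 ± 822 at gd12 (SD, n = 3 each), with no call between adjacent stages. It fell at pnd2 against gd11 (-0.28 ± 0.07 SE, limma adjusted p = 0.00217), where Rps4l rose (0.57 ± 0.17, adjusted p = 0.00959). Rpl39 was read through a dim probe set with stage means of 414 to 501 and no call in any comparison. Germ cell markers were likewise highest at gd14: the sum of 6 germ cell genes was 1228 to 2139 at gd11, 6601 to 21144 at gd12, 32261 to 35935 at gd14, 9741 to 14167 at gd16, 6805 to 9744 at gd18 and 6053 to 8788 at pnd2. Of these 6 genes, 6 rose at gd12 against gd11, against 11.2% of all genes. At gd14 against gd12, 4 rose and 1 fell, against 11.4% and 7.34% of all genes. At gd16 against gd14, 3 fell, against 4.99% of all genes. At pnd2 against gd18, where Rps4l rose, 1 fell and none rose, against 5.26% and 2.54% of all genes. Germ cell genes also differed from each other: Dazl averaged 3407 at gd16 and 4972 at pnd2, and Ddx4 3057 and 1760. The part of germ cell genes in the result was not tested.

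**Figure D4:**
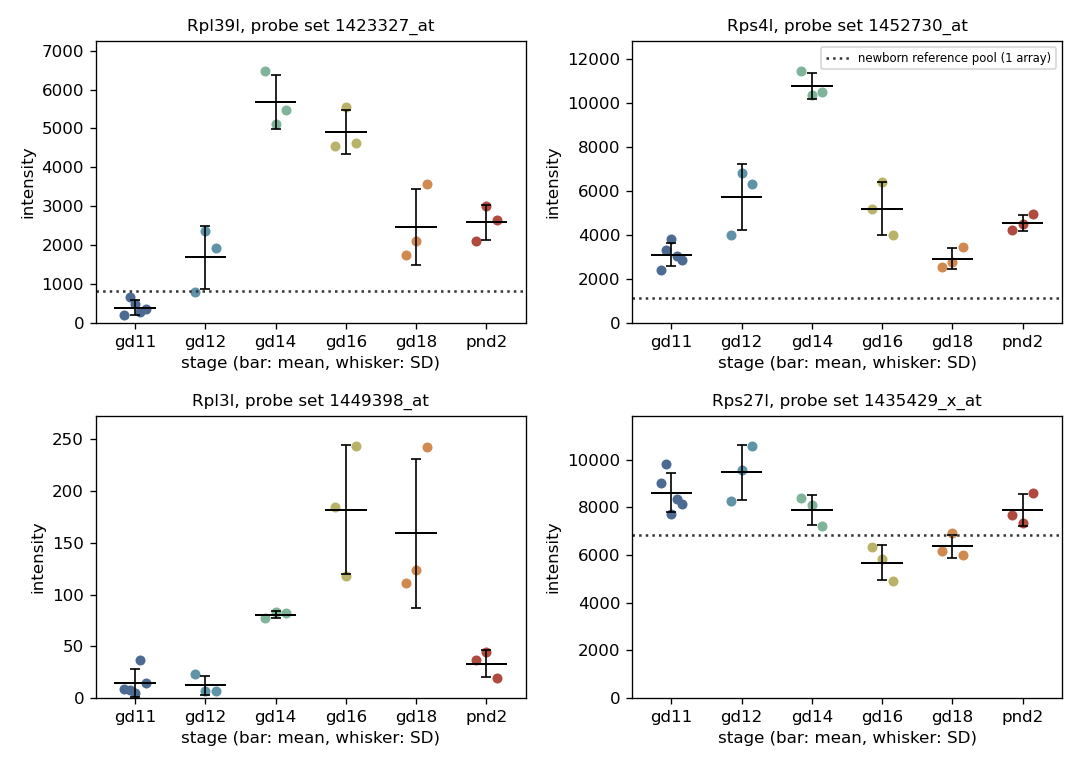
Intensity of the 4 paralogues by stage; points are arrays, bars stage means, whiskers SDs, and the dotted line the single newborn reference array (beyond the axis for Rpl3l, at 793). Rpl39l and Rps4l are highest at gd14 and Rpl3l at gd16, and Rps27l is lowest at gd16.

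Rpl3l, a paralogue of Rpl3 known from heart and skeletal muscle, stayed low. It had 8.57, 7.81, 4.66, 37.0 and 14.6 at gd11, 22.9, 6.60 and 7.16 at gd12, 77.1, 82.7 and 82.0 at gd14, 185, 118 and 243 at gd16, 111, 124 and 242 at gd18, and 36.5, 44.4 and 18.96 at pnd2. The gd11, gd12 and pnd2 values lay under 71.6, the 40th percentile of all testis values, so the folds out of them are understated. The gene passed the filter on dim values through the stages where it was high (gd14, gd16 and gd18). Its tests against the low stages are therefore not independent of that filter. Rpl3l rose at gd14 against gd12 (1.60 ± 0.35 SE, limma adjusted p = 0.00358), a call also made without the filter. It fell at pnd2 against gd18 (-1.66 ± 0.35, adjusted p = 0.00877). The whole-newborn reference, which contains muscle, read 793. A list of 12 muscle genes summed to 1390 to 4608 at gd11, 1106 to 2348 at gd12, 803 to 987 at gd14, 1450 to 2194 at gd16, 1481 to 2363 at gd18 and 1038 to 1359 at pnd2. The muscle sum was thus lower at gd14 than at gd12, where Rpl3l rose, and higher at gd16 than at gd14 and lower at pnd2 than at gd18, as the Rpl3l means were. Its part in the result was not tested.

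Rps27l, a p53-induced paralogue of Rps27, had 6322, 5830 and 4904 at gd16, against 8411, 8095 and 7203 at gd14, without overlap (-0.48 ± 0.11 SE, limma adjusted p = 0.0119). Its other 2 probe sets also had lower means at gd16 (4166 ± 193 against 5013 ± 246, and 5846 ± 457 against 6692 ± 127, SD, n = 3 each). Rps27, read through a dim probe set with stage means of 227 to 350, was not called in any comparison. Rpl22l1, Rpl7l1 and Rps3a1, whose symbols fall outside the rule, were also measured. Rpl22l1 rose at gd14 against gd12 (0.35 ± 0.09, adjusted p = 0.00934), where its paralogue Rpl22 did not pass the test. Rpl7l1 fell at pnd2 against gd11 (-0.72 ± 0.10, adjusted p = 1.31e-05).

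Genes that build the ribosome were read from a list of 50 biogenesis factors. It had 13 called higher and 1 lower at gd12 against gd11, against 11.2% and 10.2% of all genes. At gd14 against gd12 it had 10 higher and 7 lower, against 11.4% and 7.34% of all genes. At gd16 against gd14, 21 of 50 fell and none rose, against 4.99% and 5.39% of all genes, with a median of -0.38 against 0.05. The count of falls was 21 with quantile normalization, 24 with median centring and 12 with centring on the bright other genes. The share of all genes called under these scalings is not given, and the last moved the median of all genes to 0.16. Rrs1, an assembly factor of the 60S subunit, rose at gd12 (3823 ± 559 against 2364 ± 154, log2 change 0.68 ± 0.11 SE, limma adjusted p = 0.000323). Heatr1, which acts in pre-rRNA transcription and processing, rose at gd14 (4009 ± 111 against 1716 ± 259, 1.22 ± 0.16, adjusted p = 2.92e-05). Wdr12, of the PeBoW complex that matures 28S rRNA, fell at gd16 (982 ± 76.0 against 1776 ± 148, -0.84 ± 0.14, adjusted p = 0.00117), and so did Surf6 and Ddx10.

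RNA polymerase I and its factors (15 genes) had 6 called higher and 2 lower at gd14 against gd12, against 11.4% and 7.34% of all genes, with Taf1c among the higher ones (0.91 ± 0.11 SE, limma adjusted p = 2.42e-05). The list had 2 to 4 lower and 4 to 5 higher under the other scalings. Proteins of the mitochondrial ribosome (76 genes) had 18 higher and 5 lower at this step, set against the same shares of all genes, with Mrpl23 the largest (8148 ± 532 at gd14 against 3735 ± 769 at gd12). Under the other scalings 10 to 17 were called higher. Neither this range nor those of RNA polymerase I stand beside the share of all genes called under those scalings. At gd16 against gd14, 8 of the 76 fell and none rose, against 4.99% and 5.39% of all genes. The kinase Mtor, which controls the translation of TOP mRNAs, rose at gd14 (2622 ± 271 against 1323 ± 113, 0.97 ± 0.13, adjusted p = 3.43e-05), and Mycn and Myc fell (-0.74 ± 0.17 and -0.92 ± 0.22).

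Of 14 elongation factors and other TOP genes, 9 fell and none rose at pnd2 against gd11, against 24.4% of all genes called lower and 24.2% called higher. Their median was -0.27, but with quantile normalization 5 fell and 2 rose and with centring on the bright other genes 4 fell and 2 rose. Npm1, a nucleolar protein that carries ribosomal subunits, fell (17427 ± 278 at pnd2 against 27015 ± 1851 at gd11, -0.63 ± 0.07 SE, limma adjusted p = 9.31e-07). Eef2, which moves the ribosome along the mRNA, averaged 16038 ± 830 at pnd2 and 18739 ± 810 at gd11 (-0.22 ± 0.06, adjusted p = 0.00253). Among 24 initiation factors 9 fell and none rose, against the same 24.4% and 24.2% of all genes. The outcome again differed after centring on the bright other genes (2 fell and 8 rose), which moved the median of all genes to 0.22. Counts given in this paragraph for other scalings stand without the share of all genes called under them. Of 26 cell division genes, 15 were called lower and none higher at pnd2 against gd11, against 24.4% and 24.2% of all genes. At another step, gd14 against gd12, 18 of the 26 were lower and none higher, against 7.34% and 11.4% of all genes. Under the other scalings 19 to 20 were lower at that step.

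**Figure D5:**
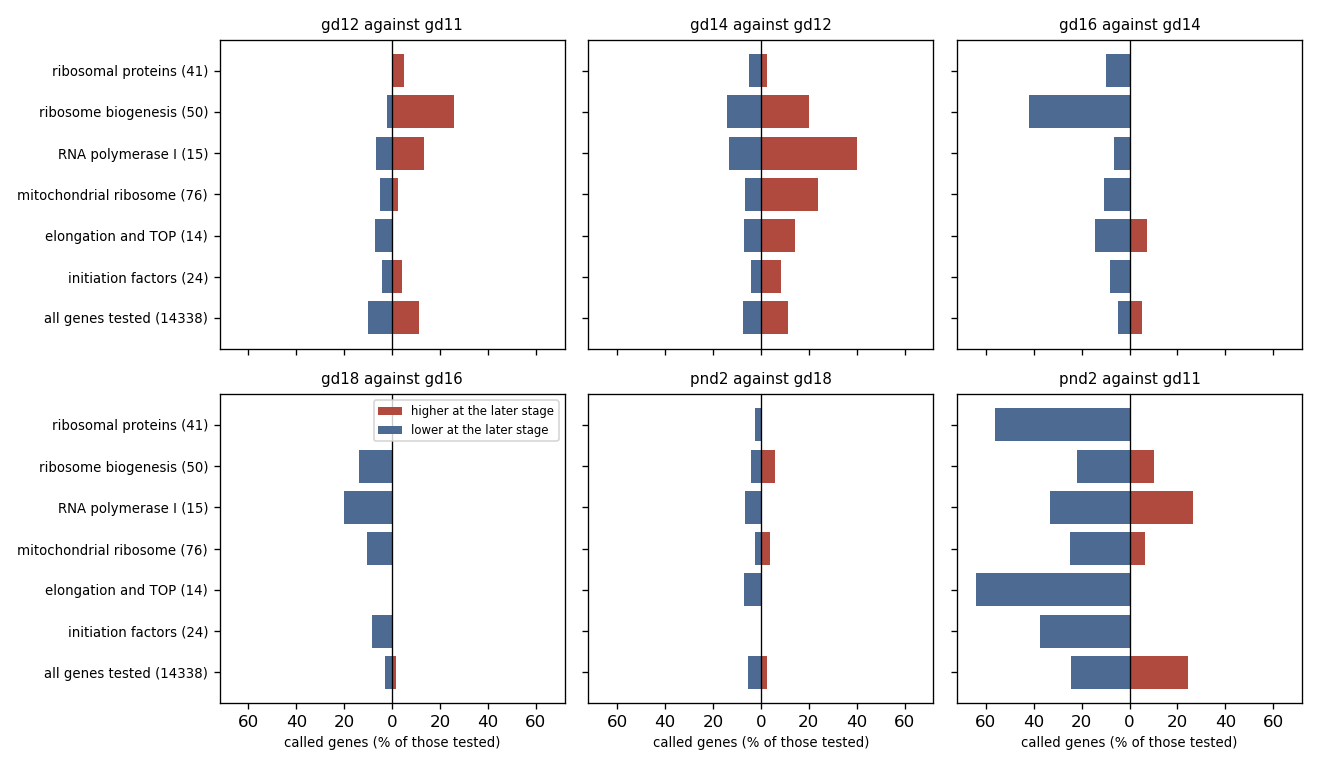
Share of genes called higher (right of 0) and lower (left of 0) at the later stage in percent of those tested, for ribosomal proteins, 5 related gene lists and all 14338 genes, in the 6 comparisons on the scale as deposited; numbers in brackets are genes tested. Biogenesis factors show 21 of 50 lower at gd16 against gd14 and none higher, where ribosomal proteins show 4 of 41.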

How the data were processed

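RNA of 20 whole-testis samples and 1 newborn reference pool was measured on single-channel arrays. The deposited values are linear intensities per probe set, for which the submitters' processing notes name GCOS. The sources used here give neither its version nor its algorithm. In the files the mean of each array was 500 after trimming 2% at each end. Gene names came from the platform annotation, and 34945 probe sets carried 1 gene. Members and gene lists were chosen with earlier results of these data known.

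The offset 22.4, the 20th percentile over the testis arrays, was added before taking log2, so folds of dim genes are understated. A probe set was kept if it exceeded the 40th percentile of at least 3 of the arrays, and the brightest represented its gene (14338 genes). All 20 arrays entered 1 limma fit (version 3.58.1, R 4.3.3) of 6 stage means with a trended prior (14 residual degrees of freedom, 4.94 prior). P-values are two-sided, Benjamini-Hochberg adjusted over all genes, called below 0.05, and measure the spread between arrays. Probe sets (26713) were fitted likewise. Promoters, chromosomes and the synonyms used to match listed genes to platform symbols were taken from RefSeq tables of GRCm38.p6.

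Named members were the 3 most positive and 3 most negative called changes per comparison, the median change, the 3 largest and 3 smallest stage ranges, a fixed set, the paralogues with their parents, and members with opposed probe sets. For other lists, up to 3 called genes of largest change could be named. Alternatives were offsets of 1 and 100, no filter, quantile normalization, median centring, other probe set choices, array weights, fits of only the stages compared, and leaving out arrays. Restriction to bright members and centring on bright other genes were chosen after seeing the data. The labels give no batch.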

Additional observations from a re-analysis of the deposited data

Results flagged for a closer look

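Over the 5 arrays of gd11, 48 sets of values were examined for an array far from the other 4, and 6 stood out; chance alone flags about 1 set in 20, and sets from 1 array are not independent. Replicate 18 was far above the others for Rpl38 (38894), Rpl7 (34303), Rpl7a (39111), Rps10 (41705) and Rps28 (36868). This is the array that was highest of its stage for 33 of 34 bright genes. Replicate 16 was far above the others for the dim probe set of Rps27 (452).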

How the results depend on the processing

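Of 45 called changes of members and paralogues, 10 kept call and direction under every setting tried. These were Rpl12 (gd14 against gd12), Rpl14 (pnd2 against gd11), Rpl39l in 3 comparisons, Rpl3l in 1 (gd14 against gd12) and Rps4l in 4. Rpl3l passed the filter through the stages where it was high. Over 1381 pairs of a called gene and a setting, 1219 kept both, 146 lost the call and 16 turned sign. At gd12 against gd11 the count of 2 called members became 0 without a filter, with median centring, in a fit of these stages alone and among bright members, and 1 with quantile normalization or array weights. The median turned to 0.039 with quantile normalization, 0.20 with plain probe sets (suffix _at) and 0.087 with centring on bright other genes. At gd14 against gd12 the 3 calls became 5 without gd11 replicates 16 and 17 and 1 among bright members, and the median was 0.014 with quantile normalization and turned to -0.25 with plain probe sets. At gd16 against gd14 the 4 calls became 2 with quantile normalization, plain probe sets or centring on bright other genes, 7 with median centring or a fit of these stages alone, and 8 with array weights. The median turned to 0.012 with quantile normalization and was -0.0080 with centring on bright other genes. At gd18 against gd16 quantile normalization gave 1 call. At pnd2 against gd18 the 1 call became 0 with quantile normalization, median centring or a fit of these stages alone, 2 with the mean of all probe sets or plain probe sets, 3 without gd11 replicates 16 and 17, 5 with centring on bright other genes and 7 with array weights, and the median was -0.029 with quantile normalization. At pnd2 against gd11 the 23 calls became 6 with quantile normalization, 7 with plain probe sets, 3 with centring on bright other genes and 34 with median centring, with a median of -0.00085 with quantile normalization and 0.032 with centring on bright other genes. A fit of these stages alone gave 17. The 22 members varying over the stages became 11 with quantile normalization or plain probe sets and 34 with median centring. Plain probe sets are carried by 21 of the genes, so fewer were tested there. The cause of the other shifts was not tested. Counts of called members in this section stand without the share of all genes called under the same setting.

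At pnd2 against gd11, single genes turned sign with centring on bright other genes (Rpl35 0.010, Rpl4 0.041, Rpl6 0.010, Rpl7 0.032, Rpl7a 0.028, Rps10 0.035, Rps18 0.037, Rps7 0.021 and Rps9 0.075), with quantile normalization (Rpl6 0.00228, Rpl7 0.020, Rps10 0.011, Rps18 0.021 and Rps9 0.059) and with plain probe sets (Rps18 0.38 and Rps3 0.28).

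Leaving out 1 array at a time gave 0 to 2 calls and medians of -0.092 to -0.031 at gd12 against gd11, 2 to 5 calls and medians of 0.099 to 0.17 at gd14 against gd12, and 0 to 5 calls and medians of -0.16 to -0.072 at gd16 against gd14. It gave 0 calls and medians of -0.015 (without gd16 replicate 8) to 0.067 at gd18 against gd16, 0 to 2 calls and medians of -0.16 to -0.11 at pnd2 against gd18, and 15 (without pnd2 replicate 1) to 26 calls and medians of -0.25 to -0.18 at pnd2 against gd11. Between 14 (without pnd2 replicate 1) and 24 members varied over the stages. No paired analysis was possible because replicate numbers run on through the series and no groups share one. Dim probe sets limit the precision for 7 genes, and the small number of arrays limits all values.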
